A study of Mus musculus with 13 samples.

Results

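Rag1, Rag2 and Dntt, the 3 genes that make the cutting and the base-adding enzymes of antigen receptor assembly, were taken by symbol from the gene lists of the Parse WT and Parse Mini experiments, as 3 of 57010 listed genes. Both experiments used split-pool barcoding of fixed cells, in which the first-round well gives a cell its tissue sample and a unique molecular identifier (UMI) marks each captured transcript. The 8 thymic samples were lobes of unmanipulated 2-month-old female C57BL/6N mice, 4 from 2 mice on the Parse WT kit (called WT 1 to WT 4) and 4 from 2 other mice on the Parse Mini kit (called Mini 1-A, 1-B, 2-A and 2-B). Neither kit's tables tie a lobe to a mouse with certainty, so lobes of 1 mouse enter as separate samples and the p-values below are too small for a statement about mice.

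The 16 other samples of the Parse WT kit (CVS_C_1 to CVS_C_5, CVS_S_1 to CVS_S_6 and YD_C_1 to YD_C_5) carry no label of tissue, age or treatment of their own. Labels of the whole library name thymus and spleen as tissues and control and chronic stress as treatments. The study calls these 16 samples non-thymic and does not describe them further. The 4 WT samples were taken as the thymic ones from their table names and cell numbers, and their transcripts were checked against marker lists. Markers of CD4+CD8+ thymocytes (among them Cd4, Cd8a, Cd8b1 and Arpp21) summed to between 4922 and 7151 UMIs per 1000000 UMIs outside ribosomal RNA (CPM) in the 8 thymic samples and to between 79.8 and 377 CPM in the 16 others. B cell markers summed to between 105 and 371 CPM in the thymic samples and to between 3156 and 10760 CPM in the others.

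After quality control 58642 thymic cells and 81396 cells of the other samples were kept, 140038 in all 24. A thymic sample held between 20110468 and 84292900 UMIs, with a median of 2306 to 3900 UMIs per cell. Classes were read in the 49123 thymic cells with at least 1000 UMIs outside ribosomal RNA. A barcode combination occurred more than once among sublibraries for 19867 combinations of the WT table and 1360 of the Mini table. Both kits shared 3012 combinations, all between Mini cells and cells of the other WT samples. Thymic WT cells shared 0 with Mini cells, which the layout fixed, since their first-round wells differed. No doublet caller was run. The study called doublets computationally in both Parse libraries and removed them, so the cells kept here include cells that it left out.

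RAG1 and RAG2 form the recombinase that cuts DNA at the recombination signals beside V, D and J segments, and terminal deoxynucleotidyl transferase, the product of Dntt, adds bases without a template at the junctions before they are ligated. In the thymus, Tcrb is assembled in CD4-CD8- (DN) cells and Tcra in CD4+CD8+ (DP) cells. Both Rag genes are known to be silenced after positive selection, and the RAG2 protein is known to be degraded when cells enter S phase. The counts here are of transcripts, not of protein.

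In GENCODE M21 on GRCm38, Rag1 spans chr2:101638282-101649501 on the minus strand with its whole coding sequence of 3120 bases in 1 exon of 2, and Rag2 spans chr2:101624718-101632529 on the plus strand with a coding sequence of 1581 bases. Their ends face each other across 5752 bases, and their starts lie 24783 bases apart. Dntt spans chr19:41029275-41059525 on the plus strand, with up to 12 exons and a coding sequence of 1590 bases. Since the 3 genes move together in most of the comparisons below, the 200 bases before their RefSeq starts (GRCm38.p6, printed on the gene's own strand) are shown, with matches in capitals to the E-box CANNTG, which E proteins bind, to CCAAT and to TATAAA, searched on both strands:
Rag1, chr2:101649533-101649732: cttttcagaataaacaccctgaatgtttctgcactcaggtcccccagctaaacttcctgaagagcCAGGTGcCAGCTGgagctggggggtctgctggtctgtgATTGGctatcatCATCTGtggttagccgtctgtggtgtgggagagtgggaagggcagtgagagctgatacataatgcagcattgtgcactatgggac
Rag2, chr2:101624512-101624711: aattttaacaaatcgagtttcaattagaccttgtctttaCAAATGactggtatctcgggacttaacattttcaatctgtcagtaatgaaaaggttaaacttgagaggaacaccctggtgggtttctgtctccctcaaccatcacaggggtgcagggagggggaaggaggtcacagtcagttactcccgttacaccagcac
Dntt, chr19:41029075-41029274: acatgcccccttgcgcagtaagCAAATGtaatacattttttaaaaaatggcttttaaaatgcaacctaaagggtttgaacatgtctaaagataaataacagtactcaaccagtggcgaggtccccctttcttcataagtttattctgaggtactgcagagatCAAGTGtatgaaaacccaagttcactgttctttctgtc

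The Rag1 window holds 3 E-boxes and 1 CCAAT (read as ATTGG), the Rag2 window 1 E-box and the Dntt window 2 E-boxes, and TATAAA is not in these 3 windows. Of 32851 promoter windows of the same length, 58.2% hold an E-box, 29.3% CCAAT and 9.96% TATAAA. The GC content was 52.5% for Rag1, 44.5% for Rag2 and 38.0% for Dntt, against a median of 53.0% over all windows. A match here describes letters only.

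Thymocytes were sorted into classes by summed marker levels that used none of the 3 genes, so a class is a range of a score, with 3391 cells lying within 20% of the S threshold, 3356 of the G2/M, 2385 of the Tox-high, 1140 of the mature and 287 of the DN-like threshold. The classes held 18554 resting DP-like cells (DP markers, with the cell cycle, selection and maturity lists below upper limits), 3317 S-phase, 1343 G2/M, 2436 Tox-high (Tox, Cd69, Itm2a and other genes of positive selection), 756 mature (with Ccr7, Klf2, S1pr1 and Il7r among its markers) and 271 DN-like cells, while 21867 cells stayed unclassified. Resting cells could hold up to 4000 CPM of the Tox list and had a median of 1111.5 CPM, so they were not free of selection genes. DN-like cells (Il2ra, Ptcra, Dtx1 and others, with Cd4, Cd8a and Cd8b1 below a limit) went partly against their name, with a median of 5090 CPM of the DP list and 439 CPM of the mature list. Defining genes are not results here.

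Resting DP-like cells carried the highest Rag1 of the 6 classes. Rag1 was at 1149 CPM in the lowest, 1764 CPM in the median and 1943 CPM in the highest of the 8 samples, with a mean of 1603 ± 311 CPM (SD, n = 8). Rag2 ranged from 58.9 to 103 CPM with a median of 95.6 CPM, and Dntt from 539 to 834 CPM with a median of 730.0 CPM. WT 2 and WT 4 were the lowest for Rag1 (1156 and 1149 CPM) and WT 4 for the other genes, while WT 1, at 1754, 99.7 and 710 CPM of the 3 genes, stood nearest to the Mini samples. Per kilobase of annotated exon, the pooled level of the class was 224 CPM for Rag1, 23.6 CPM for Rag2 and 297 CPM for Dntt. Per kilobase of the whole gene it was 132, 10.3 and 22.5 CPM, so the place of Dntt beside Rag1 depended on the length taken.

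Per cell, a resting DP-like cell held a median of 4 Rag1, 0 Rag2 and 2 Dntt UMIs, and at most 42, 7 and 25. At least 3 UMIs were found in 64.1% of these cells for Rag1, 0.873% for Rag2 and 33.3% for Dntt. With each cell thinned to 1000 UMIs, 73.4% of cells kept a Rag1 UMI, 8.20% a Rag2 UMI and 48.0% a Dntt UMI, against 91.7%, 21.3% and 75.4% without thinning. In cells with the markers of conventional dendritic cells, which should lack all 3, the thinned shares were 12.3%, 0.847% and 9.75%, and the unthinned ones 29.2%, 5.51% and 27.1% at a median of 4469 UMIs against 2362. These dendritic-list cells, 236 in the 8 samples and 14 to 67 per sample, are set beside the low classes below. Their Rag1 ranged from 82.1 to 399 CPM between samples, pairs of cells were not removed from them, and some thymic cells were lower (45.5 CPM in mature cells without DP-list transcripts), so they give no lower limit.

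**Figure D1:**
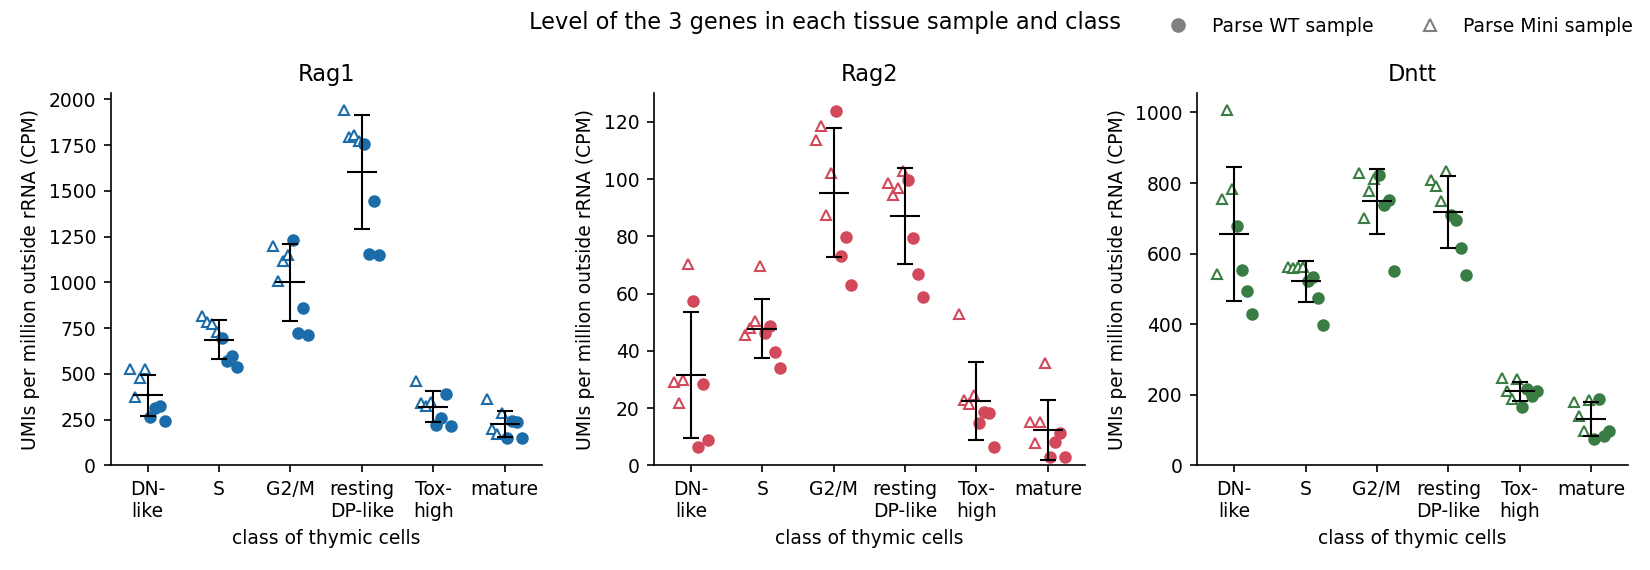
Level of Rag1, Rag2 and Dntt (UMIs per 1000000 UMIs outside ribosomal RNA, linear axes from 0) in each class, 1 point per tissue sample, circles for Parse WT and triangles for Parse Mini, with bars for the mean ± SD over 8 samples. Rag1 is highest in resting DP-like cells at 1603 CPM on average, Rag2 and Dntt stand at like levels in G2/M and resting cells, and all 3 are low in Tox-high and mature cells.

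The order of the mean Rag1 levels was resting, G2/M (999.9 CPM), S (688 CPM), DN-like (382 CPM), Tox-high (320 CPM) and mature (225 CPM). Of these neighbours only S and DN-like cells had ranges that did not overlap, though each class was above the next within 7 or 8 of 8 samples. For Rag2 the order was G2/M (95.2 CPM), resting (87.2 CPM), S (47.8 CPM), DN-like (31.6 CPM), Tox-high (22.6 CPM) and mature (12.4 CPM), and the ranges of all neighbours overlapped. Dntt ran from G2/M (748 CPM) over resting (718 CPM), DN-like (655 CPM), S (522 CPM) and Tox-high (210 CPM) to mature (131 CPM), with S and Tox-high cells not overlapping. The first 2 of the Rag2 order kept it in 5 of 8 samples, and the first 2 of the Dntt order in 6 of 8.

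All 5 comparisons against resting cells below share those resting cells and come from 1 fit. S-phase thymocytes, marked by replication genes such as the Mcm family, had lower CPM of all 3 genes than resting DP-like cells. CPM is a share of a cell's UMIs, and S-phase cells held more UMIs, at a median of 5447 against 2362. Without thinning, a Dntt UMI was found in 84.1% of S-phase against 75.4% of resting cells. For Rag2 these shares were 22.8% and 21.3%, and for Rag1 82.1% and 91.7%. The falls below are thus not falls in transcripts per cell. Rag1 was at 539, 713 and 818 CPM in the lowest, median and highest sample of S-phase cells and fell by 1.31 on the log2 scale (SE 0.05, adjusted p = 9.604e-36), to 40.3% of the resting level. Every S-phase sample was below every resting sample. How many of all genes had such separate ranges was not counted, for this or any other comparison of classes. Rag2 fell by 0.94 (SE 0.08, adjusted p = 1.884e-18) and was at 34.1, 47.1 and 69.7 CPM. Dntt fell least, by 0.56 (SE 0.05, adjusted p = 6.725e-17), and was at 397, 546 and 563 CPM. For Rag2 and Dntt the ranges of the classes overlapped, and both were lower in S-phase cells in 8 of 8 samples. Lower calls at an adjusted p under 0.05 were made for 39.8% of the 9831 genes tested and higher calls for 33.6%, so a call alone says little here. Rag1 ranked 113th from the lowest fold change, Rag2 447th and Dntt 1524th.

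In G2/M cells, marked by mitotic genes such as Top2a, Rag1 was the only one of the 3 genes called lower than in resting cells. Rag1 stood at 712, 1064 and 1232 CPM and fell by 0.67 (SE 0.06, adjusted p = 1.808e-17), lower in 8 of 8 samples with overlapping ranges. Rag2 in these cells was at 63.1, 94.8 and 124 CPM, a log2 difference of 0.14 with a 95% interval from -0.03 to 0.32 (adjusted p = 0.1849) and lower in 3 of 8 samples. Dntt was at 549.3, 765.2 and 829.1 CPM, a log2 difference of 0.09 with an interval from -0.02 to 0.19 (adjusted p = 0.1962). Of all genes, 24.8% were called lower and 18.3% higher, so 42.39% of the calls were higher, and 53.22% were with RLE size factors. The Dntt difference was 0.22 (adjusted p = 0.00487) in the WT samples alone and -0.02 (adjusted p = 0.8604) in the Mini samples alone. A test of the kits against each other gave an exact permutation p of 0.08571, adjusted 0.6428 over 15 tests. With 4 against 4 samples that p cannot go below 0.0286 before adjustment. The test could thus hardly pass, and it does not decide whether the kits differ. Over both kits the Dntt difference passed the threshold without Mini 1-B (0.17, adjusted p = 0.01339) or Mini 2-A (0.14, adjusted p = 0.03422). It also passed with RLE size factors (0.15, adjusted p = 0.02246), at no more than 10000 UMIs per cell (0.17, adjusted p = 0.02126) and with stricter class limits (0.19, adjusted p = 0.00456), and was 0.008 (adjusted p = 0.9426) with cells thinned to 1000 UMIs. The Rag2 difference was -0.005 (adjusted p = 0.9868) when thinned and 0.35 (adjusted p = 0.02148) with stricter class limits.

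Set directly against G2/M cells, in a contrast added after the data were seen, S-phase cells had lower Rag1 by 0.65 (SE 0.06), Rag2 by 1.09 (SE 0.10) and Dntt by 0.64 (SE 0.06), each in 8 of 8 samples and each with an adjusted p of at most 2.231e-15. Lower calls made up 25% of all genes in this contrast. S-phase cells had a median of 5447 UMIs, G2/M cells 5212 and resting cells 2362, and the 4 falls from resting cells (Rag1 in both classes, Rag2 and Dntt in S-phase cells) were also called with every cell thinned to 1000 UMIs, at -1.45 and -0.78 for Rag1, -1.17 for Rag2 and -0.56 for Dntt.

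Along the S list, read in cells with DP markers and with the Tox, mature and DN lists below their upper limits, the pooled Rag1 level went from 1505 CPM in cells below 500 CPM of the list to 523 CPM in cells at 8000 CPM or more, while Rag2 went from 83.4 to 39.1 CPM and Dntt from 686 to 505 CPM. Most of the Dntt difference was reached at 3000 CPM of the list, with 507 CPM, after which the level stayed between 497 and 507 CPM. Along the G2/M list, in such cells outside S phase, Rag1 went from 1554 to 886 CPM, with its lowest pooled value of 842 CPM in the bin from 4000 CPM. Rag2 went from 82.3 over 69.7 to 99.7 CPM and Dntt from 693 over 581 to 747 CPM, both lowest in the middle bins.

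**Figure D2:**
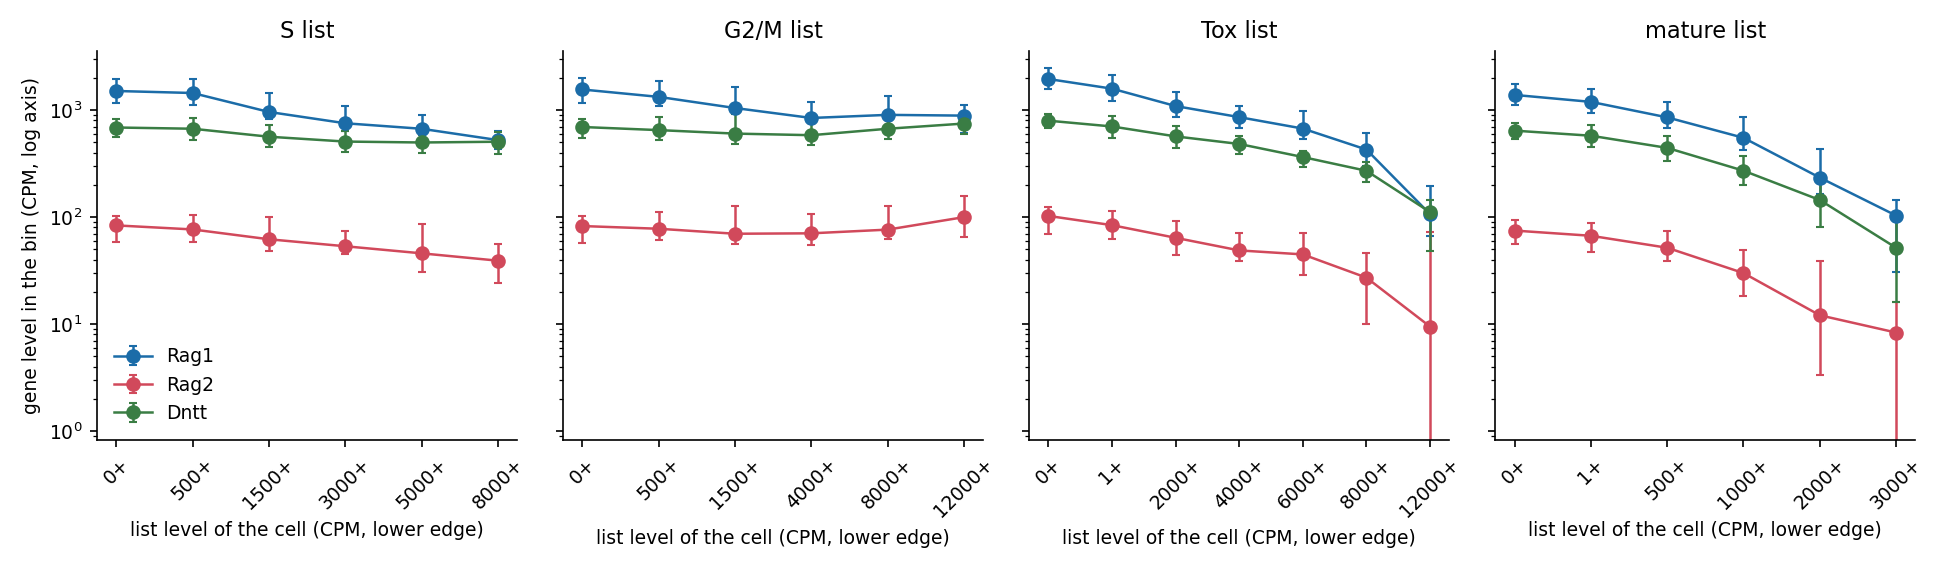
Pooled level of the 3 genes (CPM, log axis) in cells binned by the summed level of the S, G2/M, Tox and mature lists, each tick giving the lower edge of a bin, with bars from the lowest to the highest sample with at least 20 cells. Bars that run off the lower edge reach 0. All 3 lines fall along the Tox and mature lists, while along the G2/M list only Rag1 ends far below its start.

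**Figure D3:**
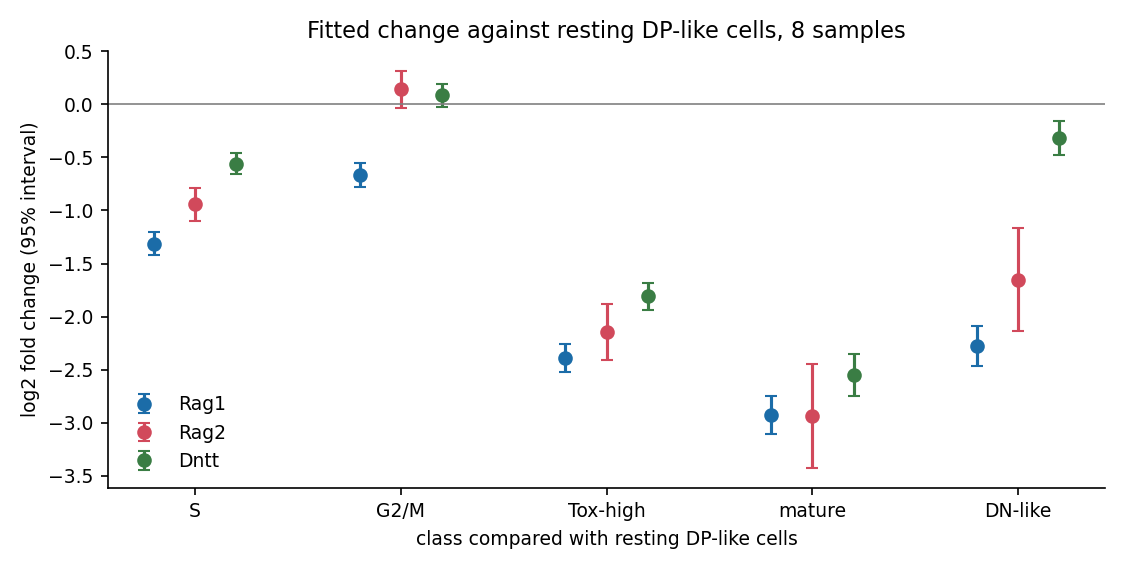
Fitted log2 fold change of each gene in each class against resting DP-like cells over 8 samples, with 95% intervals from the fit. The intervals of Rag2 and Dntt in G2/M cells cross 0, those of Tox-high and mature cells lie below -1 for all 3 genes, and in DN-like cells Dntt stands well above Rag1.

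Tox-high cells, which carry genes induced by positive selection, were far lower in all 3 transcripts. Rag1 was at 217, 331 and 463 CPM and fell by 2.39 (SE 0.07, adjusted p = 3.568e-46), to 19.1% of resting cells. Rag2 was at 6.49, 20.1 and 53.0 CPM and fell by 2.15 (SE 0.13, adjusted p = 1.701e-24). Dntt was at 166, 210 and 247 CPM and fell by 1.81 (SE 0.07, adjusted p = 7.889e-39), to 28.5%. None of the 3 ranges overlapped that of resting cells, a separation that was not counted over all genes. By adjusted p, 21.1% of all genes were called lower and 19.4% higher. The fold changes of the 3 genes ranked 35th, 60th and 120th from the lowest of 9831. The size of the falls moved with the class limit, to -3.95 (stricter) or -1.75 (looser) for Rag1, -3.23 or -1.48 for Rag2 and -2.71 or -1.38 for Dntt. The DP list was lower too, at a median of 1363 CPM in Tox-high against 7801 CPM in resting cells. Resting cells had to reach 2000 CPM of that list and Tox-high cells did not. The part of the DP-list level in these falls was not tested. The pooled thinned share of Tox-high cells with a UMI was 17.2% for Rag1, 1.60% for Rag2 and 13.96% for Dntt. By sample these shares overlapped those of dendritic-list cells, at 14.2% to 23.1% against 0% to 17.6% for Rag1 and 11.9% to 17.0% against 0% to 17.8% for Dntt.

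Along the Tox list, read in cells outside the cell cycle, with the mature and DN lists below their upper limits and at any DP-list level, the fall went on from bin to bin. Pooled Rag1 was 1947 CPM in cells with none of the list, 1582, 1088, 857 and 670 CPM in the next 4 bins, 427 CPM between 8000 and 12000 CPM, and 106 CPM at 12000 CPM or more. In that top bin of 901 cells Rag2 was at 9.45 CPM and Dntt at 111 CPM, and the thinned shares of 8.21% for Rag1, 0.555% for Rag2 and 8.44% for Dntt were at or below those of dendritic-list cells. The class as a whole, with a lower limit of 8000 CPM, mixed such cells with cells at 427 CPM of Rag1.

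Mature cells, with genes of thymic exit such as S1pr1 and Klf2, were lowest. Rag1 was at 151, 219 and 361 CPM and fell by 2.93 (SE 0.09, adjusted p = 5.723e-43), Rag2 was at 2.74, 9.66 and 35.7 CPM and fell by 2.94 (SE 0.25, adjusted p = 8.027e-18), and Dntt was at 74.1, 119 and 188 CPM and fell by 2.55 (SE 0.10, adjusted p = 2.141e-36). No mature sample reached the level of a resting sample for any of the 3, which was not counted over all genes. By adjusted p, 22% of genes were called lower and 21.7% higher (49.74% of calls higher, and 58.79% with RLE size factors). The pooled levels of 213, 11.6 and 125 CPM stood beside 187, 13.1 and 120 CPM in dendritic-list cells, and the thinned shares of 13.2%, 0.926% and 9.39% beside 12.3%, 0.847% and 9.75%, so for the class as a whole the pooled values of the 3 genes were near those of dendritic-list cells. The size of the falls moved with the class limit, to -4.04 (stricter) or -2.18 (looser) for Rag1, -3.67 or -2.28 for Rag2 and -3.97 or -1.93 for Dntt. Rag2, on 24 UMIs of 756 cells, was at -3.72 in the WT and -2.40 in the Mini samples alone.

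Most of the remaining transcripts of mature cells lay in the cells with the most DP-list transcripts, in a split added after the data were seen. Among 155 mature cells without a DP-list UMI, Rag1 was at 45.5 CPM, Rag2 at 0 of 155 cells and Dntt at 39.0 CPM. The 312 cells below 1000 CPM of the list but above 0 were alike, at 42.6 CPM of Rag1 and 43.7 CPM of Dntt. From 1000 to 2000 CPM, 133 cells had 118 CPM of Rag1 and 69.7 CPM of Dntt. The 156 mature cells with 2000 CPM or more of the DP list had 643.5 CPM of Rag1, 40.5 CPM of Rag2 and 342 CPM of Dntt, and they held 350 of the 441 Rag1 UMIs of the class. Over all thymic cells outside the cell cycle, other lineages and the DN list, the 1646 cells under 500 CPM of the DP list had 45.6 CPM of Rag1, 3.38 CPM of Rag2 and 40.0 CPM of Dntt, and those at 12000 CPM or more had 1977, 108 and 903 CPM. The part of such cells in the levels of the mature class was not tested further.

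DN-like cells, 20 to 70 per sample, had the 3 genes out of step. Rag1 was at 244, 348 and 528 CPM and fell by 2.28 (SE 0.10, adjusted p = 1.607e-34), below every resting sample, and Rag2, at 6.57, 28.8 and 70.4 CPM on 35 UMIs, fell by 1.65 (SE 0.24, adjusted p = 1.668e-08), or by 2.71 with a stricter class limit. Dntt was at 429, 616 and 1007 CPM and differed by -0.32 (SE 0.08, adjusted p = 0.0007177), lower in 7 of 8 samples with overlapping ranges. That Dntt call was lost with DESeq2 (-0.17, adjusted p = 0.08221), with other size factors (-0.18, adjusted p = 0.05983), in the Mini samples alone (-0.22, adjusted p = 0.1268) and without the tissue sample as a replicate block (-0.23, adjusted p = 0.08815). Genes called lower were 24.6% and genes called higher 24% of all tested (49.41% of calls higher, and 59.8% with RLE size factors). The DN-like cells' median DP-list level was 5090 CPM, beside 7801 CPM in resting and 5324 CPM in S-phase cells. Its part in these values was not tested.

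The ratio of Dntt to Rag1 shows the same difference within each sample and needs no scaling of libraries. Per 100 Rag1 UMIs, resting cells had between 40.5 and 60.1 Dntt UMIs with a median of 43.3, S-phase cells 68.8 to 93.6 with a median of 74.4, G2/M cells 66.8 to 102 with a median of 70.03, and DN-like cells 103 to 255 with a median of 175. In each of these 3 classes, and in Tox-high cells with a median of 66.1, the ratio was above that of resting cells in 8 of 8 samples (exact sign-flip permutation test, two-sided, p = 0.0078125, the smallest that 8 samples allow, 0.0130208 after adjustment over 10 tests). Mature cells had a median of 60.4, above in 7 of 8 samples (exact permutation p = 0.03125, adjusted 0.0446429). Dendritic-list cells pooled had 64.5, near the medians of both Tox-high and mature cells, so for these 2 classes the ratio cannot be told apart from that of cells that should lack the genes. These tests were added after the data were seen.

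Rag2 rose against Rag1 in both cycling classes. Resting cells had between 4.62 and 6.86 Rag2 UMIs per 100 Rag1 UMIs with a median of 5.31, S-phase cells a median of 6.59 and G2/M cells a median of 9.40, both above in 8 of 8 samples (exact permutation p = 0.0078125, adjusted 0.0130208). In G2/M cells the lowest sample, at 7.81, was above the highest resting one. For Tox-high cells (median 6.73), mature cells (4.01) and DN-like cells (6.07) the adjusted exact permutation p was 0.3819444, 0.3819444 and 0.4765625, on 132, 24 and 35 Rag2 UMIs.

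**Figure D4:**
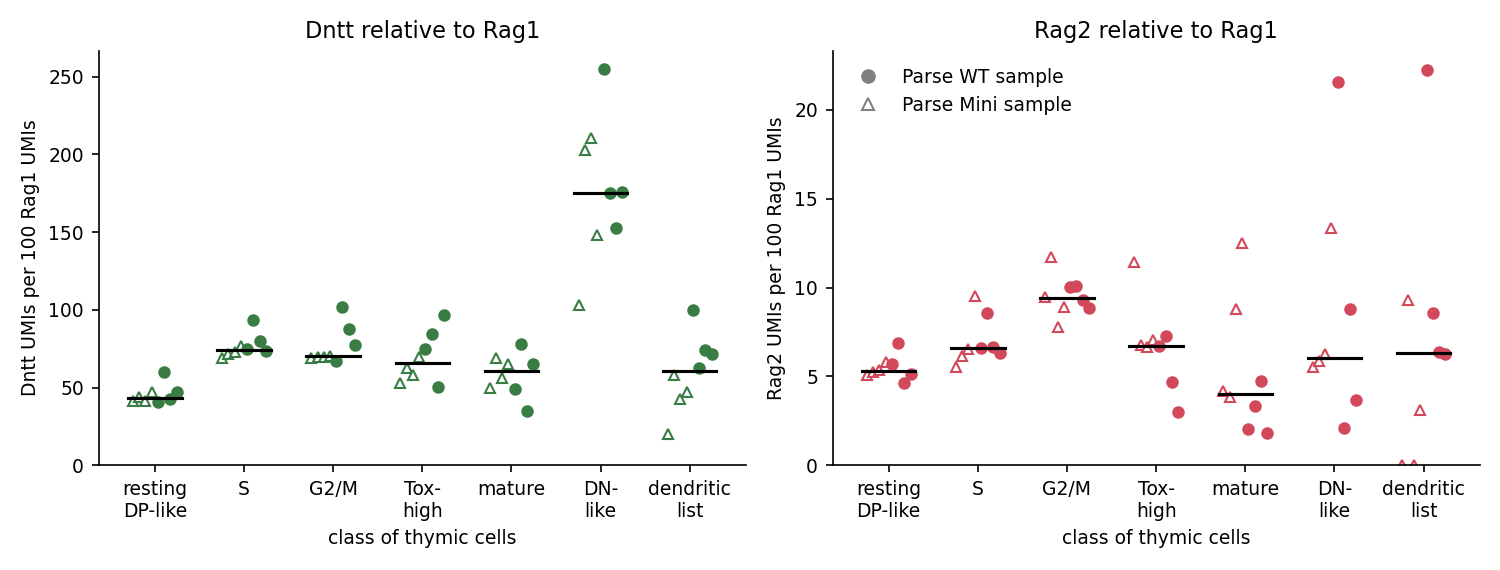
UMIs of Dntt (left) and of Rag2 (right) per 100 Rag1 UMIs in each class, linear axes from 0, 1 point per tissue sample, circles for Parse WT and triangles for Parse Mini, with a line at the median. Dntt is highest against Rag1 in DN-like cells, with a median of 175, and Rag2 in G2/M cells stands above all resting samples.

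Transcripts of the 3 genes were found in the same cells. Over all 49123 cells, 13.3% (median over samples) held none of the 3, 13.6% Rag1 alone, 6.57% Dntt alone, 0.371% Rag2 alone, 44.9% Rag1 with Dntt and 18.3% all 3. Of the cells with Rag2, between 93.3% and 96.4% also held Rag1 and between 85.0% and 88.3% also held Dntt. Within 10 bins of equal depth, cells with both genes exceeded the number expected from the single shares by 1.07 to 1.22 times for Rag1 and Rag2, 1.07 to 1.19 times for Rag1 and Dntt and 1.05 to 1.15 times for Rag2 and Dntt. The odds ratio over the bins was 4.34, 4.89 and 1.93 as a geometric mean over 8 samples, and 1.96, 1.98 and 1.47 with each cell thinned to 1000 UMIs.

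Within resting DP-like cells the values were nearer to 1. The odds ratios there were 1.52 for Rag1 and Rag2, 1.32 for Rag1 and Dntt, and 0.923 for Rag2 and Dntt, and observed over expected counts lay between 0.963 and 1.02 for all 3 pairs and samples. With each resting cell also thinned to 1000 UMIs, an alternative added after the data were seen, they were 1.199, 1.212 and 1.114, to be set beside the thinned values of all cells. The cells of 1 sample share its library, depth and free transcripts, so these values are descriptions without a p. In G2/M cells a median of 34.9% held all 3 genes, against 17.7% of resting cells, and 2.30% against 4.25% once thinned, so the higher share was not kept at equal depth.

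Among the partners that join the cut ends, the classes split the list. Of 13 partners tested, 6 rose and 5 fell in S-phase cells (list median 0.08, all genes -0.07), where 33.6% of all genes were called higher and 39.8% lower, led by Hmgb2, a DNA-bending protein that helps RAG binding, at 2.42 (SE 0.08), Atm, the kinase that answers strand breaks, at 1.21 (SE 0.06), and Dclre1c, the Artemis nuclease that opens hairpin ends, which fell by 1.18 (SE 0.05). Hmgb2 rose by 3.22 (SE 0.08) in G2/M cells, where 5 rose and 3 fell (list median 0.02, all genes -0.06) beside 18.3% and 24.8% of all genes. In Tox-high cells 4 rose and 5 fell (list median -0.14, all genes -0.03) beside 19.4% and 21.1% of all genes, and Xrcc6, the Ku70 subunit that holds broken ends, fell by 1.65 (SE 0.06) from 634 to 210 CPM. In mature cells 2 rose and 6 fell (list median -0.36, all genes -0.04) beside 21.7% and 22% of all genes, with Xrcc6 lower by 2.33 (SE 0.09), Lig4, the ligase of the pathway, by 2.10 (SE 0.20) and Dclre1c by 1.60 (SE 0.10). In DN-like cells 5 rose and 6 fell (list median -0.32, all genes -0.04) beside 24% and 24.6% of all genes, with Polm, a polymerase of end joining at 2.89 CPM, lower by 2.62 (SE 0.62) and Lig4 by 1.15 (SE 0.21). Calls stood at adjusted p values under 0.05 in edgeR's quasi-likelihood test over all genes.

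Regulators known to act on Rag transcription in lymphocytes were counted in the same way. In S-phase cells 1 of 16 rose and 10 fell (list median -0.28, all genes -0.07), beside 33.6% of all genes higher and 39.8% lower, with Satb1, a genome organizer that acts on the Rag locus in thymocytes, lower by 0.69 (SE 0.05) and Foxp1, a forkhead factor, by 0.63 (SE 0.04). In DN-like cells 3 rose and 12 fell (list median -0.68, all genes -0.04), beside 24% and 24.6% of all genes, with Satb1 lower by 2.22 (SE 0.06), from 7300 to 1806 CPM, and Tcf7, the T lineage factor TCF-1, lower by 1.67 (SE 0.06).

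In the other 3 classes the same list went both ways. In Tox-high cells 7 rose and 7 fell (list median -0.07, all genes -0.03), beside 19.4% and 21.1% of all genes, with Bach2, a transcriptional repressor, higher by 2.00 (SE 0.08), Lef1 by 1.78 (SE 0.06) and Id2, an inhibitor of E proteins, by 1.34 (SE 0.21). In mature cells 6 rose and 7 fell (list median -0.16, all genes -0.04), beside 21.7% and 22% of all genes, with Id2 higher by 3.01 (SE 0.23) and Bach2 by 2.66 (SE 0.08) and Myb, a factor of immature thymocytes, lower by 2.29 (SE 0.09). In G2/M cells 4 rose and 6 fell (list median -0.06, as in all genes), beside 18.3% and 24.8% of all genes, with Bach2 lower by 0.68 (SE 0.10), Gfi1 higher by 0.50 (SE 0.08) and Runx1 higher by 0.40 (SE 0.04).

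Transcripts of the T cell receptor complex and Themis, a T lineage signalling adaptor, were counted too, and these genes were named after their values were seen. Of 7 genes of that list, 7 were called lower in S-phase, 5 in G2/M, 4 in Tox-high, 6 in mature and 6 in DN-like cells, beside 39.8%, 24.8%, 21.1%, 22% and 24.6% of all genes. Trbc2 was called higher in G2/M cells, by 0.18 (SE 0.05), and the others were not called. Themis fell by 1.68 (SE 0.05) in mature cells, where the list median was -0.83. Of lineage genes, Zbtb7b, the CD4 lineage factor, and Cd40lg rose by 2.28 (SE 0.17) and 2.15 (SE 0.19) in Tox-high cells and by 2.94 (SE 0.22) and 3.22 (SE 0.23) in mature cells. Runx3, the CD8 lineage factor, was at -0.17 (SE 0.16, adjusted p = 0.4249) in Tox-high cells and rose by 2.67 (SE 0.14) in mature and by 2.18 (SE 0.18) in DN-like ones.

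Around the Rag locus 4 neighbours were tested, of which 3 were called lower in S-phase, 1 in G2/M, 3 in Tox-high, 2 in mature and 3 in DN-like cells, beside 39.8%, 24.8%, 21.1%, 22% and 24.6% of all genes. Iftap fell by 1.23 (SE 0.05) in S-phase, 0.51 (SE 0.05) in G2/M, 2.31 (SE 0.06) in Tox-high, 2.80 (SE 0.10) in mature and 2.47 (SE 0.11) in DN-like cells. Its annotated span covers all 11220 bases of Rag1 and all 7812 bases of Rag2, on the strand of Rag1. Reads of the locus may thus have been counted to Iftap or to Rag1, so the Iftap value is uncertain, and the doubt extends to Rag1. Ldlrad3, a receptor-like gene farther out at chr2:101950203-102186385, does not overlap them and fell by 1.13 (SE 0.06) in S-phase, 1.78 (SE 0.07) in Tox-high, 2.70 (SE 0.12) in mature and 2.67 (SE 0.14) in DN-like cells, and was at -0.11 (SE 0.06, adjusted p = 0.1509) in G2/M cells. Traf6, next to Rag1 on the far side, fell in 3 of 5 comparisons, by at most 0.73 (SE 0.21, in DN-like cells), and Commd9 was called in none of the 5 comparisons, at 7.18 to 10.0 CPM.

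Of the neighbours of Dntt 3 were tested, and 2 of them were called lower in S-phase cells, beside 39.8% of all genes. Tm9sf3 was at -0.22 (SE 0.05) in S-phase and 0.17 (SE 0.05) in Tox-high cells, both called, and at 0.07 (SE 0.08, adjusted p = 0.5157) in mature cells. Blnk, a B cell signalling adaptor at 10.2 CPM in resting cells, fell by 0.65 (SE 0.17) in S-phase and 1.15 (SE 0.44) in mature cells, and Zfp518a was called in none of the 5 comparisons.

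Over the 48 sums of sample and class, the profile most like that of Rag1 among 13090 genes was Iftap (Pearson r = 0.957 on log2 CPM), followed by Mprip (0.941), Mad1l1 (0.939), Abcc5 (0.936) and Mier1 (0.931). For Rag2 they were Rag1 and Abcc5 (0.904 each), Endou (0.890), Tcf12 (0.869) and Chrna9 (0.866), and for Dntt Xrcc6 (0.961), Katnal1 (0.936), Desi1 (0.925), Rcsd1 (0.920) and Rapgef3 (0.918). Dntt and Rag1 had an r of 0.8. Desi1 lies inside the span of Xrcc6 on the other strand, so their reads may not be separable. The same holds for Rag1 inside the span of Iftap, on the same strand. The sums share samples, classes and depth, so r describes these 48 points only.

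In the 16 other samples UMIs of all 3 genes were found at a low level. These samples were barcoded in the same kit as the WT thymic samples. The study describes mislabelling of transcripts by free barcodes in plate-based methods. What part of the UMIs below came from thymic cells in this way was not tested. Rag1 ranged from 4.41 to 28.3 CPM with a median of 6.40, Rag2 from 0.285 to 2.63 CPM with a median of 0.695, and Dntt from 4.36 to 34.1 CPM with a median of 5.61. The median over the thymic samples was 164, 98.2 and 105 times as high. A Rag1 UMI was found in between 1.03% and 4.20% of the cells of a sample, Rag2 in 0.0932% to 0.487% and Dntt in 0.909% to 4.92%. No test was made, since these samples have no group of their own.

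By first-round well, Rag1 and Dntt UMIs were found in 40 of 40 wells of these samples and Rag2 UMIs in 37 of 40. The wells in which no Rag2 UMI was captured were A1 (0 of 685 cells, which allows a share of up to 0.438%), B4 (0 of 871, up to 0.344%) and C2 (0 of 1274, up to 0.236%), a limit on cells with a captured UMI, not on cells that express Rag2, and one that covers counting error only. Rag1 was under 10 CPM in 28 wells and at 20 CPM or more in 7.

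Wells of 1 sample could differ. In CVS_C_1 Rag1 was at 38.0 CPM in well A2 and 8.54 CPM in A3, in CVS_C_4 at 33.6 CPM in A12 and 12.2 CPM in A10, in YD_C_4 at 27.9 CPM in D10 and 10.5 CPM in D9, and in CVS_S_4 at 23.9 CPM in C1 and 9.27 CPM in B12. In these pairs of wells the DP list was higher in the same well, at 427.5 and 149.9 CPM in the wells of CVS_C_1, 349 and 192 CPM in those of CVS_C_4, 454 and 308 CPM in those of YD_C_4, and 236 and 162 CPM in those of CVS_S_4. The well with the most Dntt was another one in 3 of these samples: A1 in CVS_C_1 (55.4 CPM, at 284 CPM of the DP list), A11 in CVS_C_4 (32.2 CPM, at 454 CPM, the highest DP-list level there) and B12 in CVS_S_4 (15.1 CPM), where Rag1 was lowest. Between wells of 1 thymic sample Rag1 differed by at most 1.55 times (WT 3), on 4534 Rag1 UMIs or more per well. The pairs of wells above held far fewer Rag1 UMIs: 62 and 9 in CVS_C_1, 146 and 27 in CVS_C_4, 226 and 94 in YD_C_4, and 80 and 24 in CVS_S_4. Counting error is thus larger there, and these spreads are not directly comparable. Why the wells differ was not tested.

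**Figure D5:**
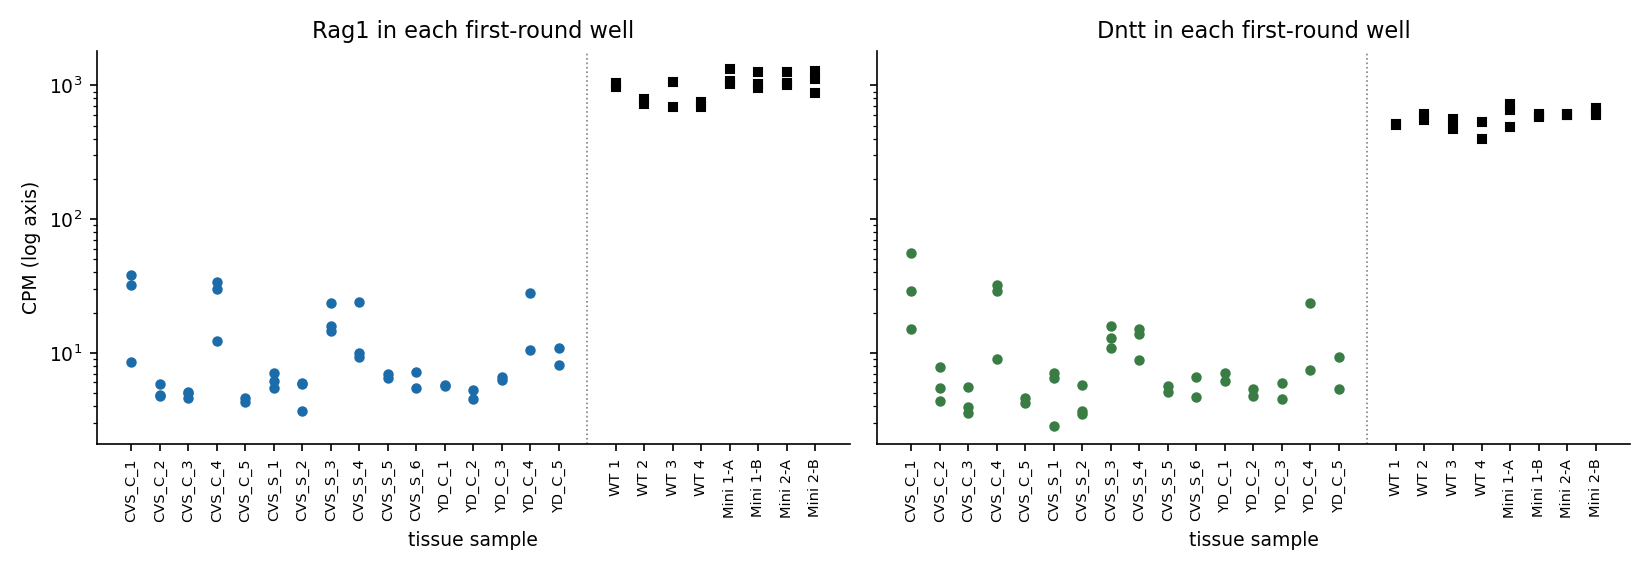
Level of Rag1 (left) and Dntt (right) in each first-round well (CPM, log axis), 1 point per well, coloured circles for the 16 other Parse WT samples and black squares for the 8 thymic samples. Wells of the other samples reach at most 55.4 CPM and thymic wells start at 399.6 CPM, and in CVS_C_1 the highest well for Rag1 stands 4.45 times above the lowest.

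Cells with many of these transcripts were few outside the thymic samples. Of 81396 cells, 3763 held at least 1 UMI of the 3 genes and 171 held at least 3. Of those 171, 111 carried DP-list genes, 29 B cell genes, 12 plasmacytoid dendritic genes and 19 none of these lists. The 111 DP-list cells held Themis, which is not on that list, in 96.4%, at a median of 1390 UMIs. Of these cells, 0 held Vpreb1, Vpreb2, Vpreb3 or Igll1, genes of the surrogate light chain and early B cells. Any of those genes was found in only 1.14% of all B cell list cells, so that 0 says little. Ebf1, a factor of the B lineage, was found in 32 of the 111 cells (28.8%, 50 UMIs), against 14.7% of all DP-list cells of these samples. Depth was not matched between these groups. Wells A11 and A12 of CVS_C_4, at 30.1 and 33.6 CPM of Rag1, held 17 of the 111 cells each, and D10 of YD_C_4 held 15.

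B cell list cells, 60.6% of the other cells, had 5.75 CPM of Rag1, 0.539 CPM of Rag2 and 4.54 CPM of Dntt, near the level of cells on none of the lists (7.60, 0.613 and 6.72 CPM). DP-list cells of these samples had 241, 25.3 and 223 CPM, with 92.3 Dntt and 10.5 Rag2 UMIs per 100 Rag1 UMIs, against 79.0 and 9.38 in B-list cells. Of the 29 B-list cells with 3 or more UMIs, 11 came from YD_C_3. These 11 held up to 8 Rag1 UMIs and a median of 51 UMIs of Ebf1, a factor of the B lineage. Of the 11, 9 held Rag1 without Dntt. Of the 29, 17 also held Themis and 16 Arpp21, at a median of 4488 UMIs against 2643 in all B-list cells, so these shares are not set against those of all B-list cells. The 18 others had a median of 10 Ebf1 UMIs, and 2 of them held Rag1 without Dntt. Depth was not matched between the 11 and the 18 cells. A single B-list cell of well D7 held 3 Rag1, 1 Rag2 and 11 Dntt UMIs together with 1 UMI each of Vpreb1, Vpreb3 and Igll1, and was named after its values were seen.

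Plasmacytoid dendritic list cells, pooled, held more Dntt than Rag1. The 665 such cells had 57.1 CPM of Dntt, 8.47 CPM of Rag1 and 0.847 CPM of Rag2, which is 675 Dntt UMIs per 100 Rag1 UMIs against 79.0 to 92.3 in the other groups. Dntt was found in 15.4% of the 473 cells with a UMI of Siglech, a defining gene of these cells, and in 1.56% of the 192 without. Depth was not matched between those with and without Siglech. By sample, Dntt was found in 14 of 16 and ranged up to 179 CPM (CVS_S_1), and Rag1 was at 0 in 7 of 16. CVS_C_3 (19 Dntt and 1 Rag1 UMIs) and CVS_C_5 (21 and 0) supplied 40 of the 135 Dntt UMIs, and YD_C_2 and YD_C_3 held 20 Dntt and 2 Rag1 UMIs each. The counts were near each other in YD_C_4 (8 and 6), YD_C_5 (4 and 3) and CVS_C_2 (4 and 2), and both were 0 in CVS_S_3 and CVS_S_4. The median depth of 2528 UMIs was like that of B-list cells (2643), where 1.62% held Dntt. The thymic cells of the same list, 85 cells, had 269 CPM of Dntt and 354 CPM of Rag1, which is 75.95 Dntt UMIs per 100 Rag1 UMIs, against 64.5 in dendritic-list cells there.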

How the data were processed

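Per the labels, 9 sublibraries of the Parse WT kit and 2 of the Parse Mini kit were sequenced. The authors ran split-pipe on mm10 (versions not given in the sources used here) and deposited, for each kit, a matrix of UMI counts per gene and cell with a table of cells, 8 columns of which were not used. The 2 listed 10x libraries were not analysed here.

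The members and all lists were chosen with earlier results of these data known. A cell was kept with no fewer than 500 and no more than 25000 UMIs, of which mitochondrial transcripts made up 15% or less, and the study's doublet calls were not rebuilt. The 3 ribosomal RNA genes were left out of library sizes. Classes needed 1000 UMIs and a summed list level of at least 4000 CPM (S), 8000 CPM (G2/M and Tox-high) or 2000 CPM (mature and DN-like), with upper limits on the other lists, and 20 cells per sample. Resting cells had less than 1500 CPM of the S and of the G2/M list, less than 4000 CPM of the Tox list and less than 1000 CPM of the mature and of the DN list. A DP-list level of at least 2000 CPM was needed for resting, S-phase and G2/M cells, and not for the other classes. UMIs were summed per tissue sample and class, and 48 sums were fitted in edgeR 4.0.16 (R 4.3.3; TMM, quasi-likelihood test, tissue sample as block, Benjamini-Hochberg over 9831 genes), with the 129 class-defining genes left out of the tests. Since the class sums of a tissue sample come from the same cells' library, the block pairs them by design. The script was tested on simulated data. Ratios were tested by exact sign-flip permutation in scipy 1.17.1. Alternatives were DESeq2 1.42.0, RLE size factors, no filter on low counts, no block, thinning to 1000 UMIs, other class limits, at most 10000 UMIs per cell, each kit alone and leaving out each sample.

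Named genes were the 3 members, up to 3 genes with the largest fold change per list and comparison, and the 5 genes with the most similar profile to each member, on log2(CPM + 10) over genes with at least 100 UMIs. Genes of the T cell receptor and lineage lists and single cells were named after their values were seen. Intervals and limits from a count of 0 cover counting error only.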

Additional observations from a re-analysis of the deposited data

Results flagged for a closer look

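Of 38 sets of 8 samples checked, 8 had a sample far from the rest by Dixon's criterion, where chance flags about 1 in 20. Rag2 stood out in Mini 2-B, at 69.71 CPM in S-phase cells (others 34.06 to 50.56) and 35.74 CPM in mature cells (others 2.74 to 15.16), and in Mini 1-A, at 53.01 CPM in Tox-high cells (others 6.492 to 24.65). Dntt in G2/M cells was at 549.3 CPM in WT 4 (others 700.1 to 829.1). Dntt per 100 Rag1 UMIs was high in WT 2, at 77.86 over all cells (others 50.28 to 58.6), 60.12 in resting cells (others 40.51 to 47.05) and 93.58 in S-phase cells (others 68.84 to 79.88). The odds ratio of Rag1 with Dntt was 10.76 in WT 1 (others 3.291 to 6.107). Between the kits, 15 exact permutation tests of the class differences gave a lowest adjusted p of 0.6428, where 4 against 4 samples cannot go below 0.0286 unadjusted. After adjustment a single difference could not pass, so these tests do not show that the kits are alike.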

How the results depend on the processing

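Of the values recomputed under the alternatives, 85 of 95 counts of called genes, 272 of 285 fold changes of the 3 genes, 74 of 78 levels and 31 of 39 odds ratios stayed as reported (counts within 1.5 times, fold changes with the same direction and call, levels and odds ratios within 1 SD over samples), and the cause of the others was not tested unless the alternative itself removes counts or samples. Leaving out 1 of 8 samples can hardly move a mean by 1 SD, so 48 of these levels and 24 of these odds ratios could hardly fail. Under the other alternatives 26 levels stayed and 4 moved, while 7 odds ratios stayed, 7 moved and 1 reversed. The odds ratio of Rag1 with Rag2 counted as unchanged when thinned, at 1.956 against 4.344, because its SD was 2.568. Thinning to 1000 UMIs, which removes counts, took the genes called from 7211 to 4002 in S-phase, 4237 to 1923 in G2/M, 3991 to 2527 in Tox-high, 4296 to 2430 in mature and 4784 to 2101 in DN-like cells. The Mini samples alone gave 2310 in G2/M and 2648 in DN-like cells, and stricter class limits 2783 in mature and 1501 in DN-like cells. For Dntt in G2/M cells the log2 difference of 0.085 became 0.145 with RLE size factors (adjusted p = 0.02246), 0.173 at no more than 10000 UMIs (0.02126), 0.19 with stricter limits (0.00456), 0.224 in WT alone (0.00487) and -0.022 in Mini alone (0.8604), and ranged from 0.062 to 0.169 with 1 sample left out. Rag2 in G2/M cells went from 0.144 to -0.005 when thinned and to 0.346 with stricter limits (adjusted p = 0.02148). Dntt in DN-like cells lost its call with DESeq2 (-0.174), RLE size factors (-0.182) and in Mini alone (-0.216), and ranged from -0.354 to -0.227 with 1 sample left out. With all UMIs as denominator the mean over all cells was 802.7, 52.68 and 457.2 CPM for Rag1, Rag2 and Dntt, and 597.9 CPM for Dntt in resting cells. Odds ratios of Rag1 with Rag2, Rag1 with Dntt and Rag2 with Dntt were 1.519, 1.318 and 0.9232 in resting cells and 1.199, 1.212 and 1.114 in thinned resting cells, and thinning all cells gave 1.956, 1.975 and 1.473. The share of calls that were higher with DESeq2 was 54.45% in G2/M, 60.38% in mature and 61.77% in DN-like cells, and the median of all genes in DN-like cells was -0.165 when thinned.

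Without the tissue sample as a replicate block, that is without the pairing of classes within a sample, 2818 genes were called in G2/M cells, and Dntt in DN-like cells was at -0.226 (adjusted p = 0.08815). The block changed no other call of the 3 genes in the 5 comparisons against resting cells.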

Other observations

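Other cells of the thymic samples, taken by a marker list at 2000 CPM or more, also held the 3 genes, and their DP-list level is given beside each. The 3378 cells of the regulatory T list (Foxp3, Ctla4 and Ikzf2) had 504.5 CPM of Rag1, 37.5 CPM of Rag2 and 328 CPM of Dntt, at a median of 2677 CPM of the DP list. The 251 cells of the innate-like and gamma-delta list had 374, 27.6 and 210.0 CPM, at a median of 1376 CPM. In the 85 cells of the CD8 lineage list Rag1 was at 128 CPM, Rag2 at 4.58 CPM and Dntt at 82.5 CPM, at a median of 957 CPM. The 20 cells of the progenitor list (Kit, Cd34 and Flt3) had 45.4 CPM of Rag1, on 3 UMIs, and 60.6 CPM of Dntt, on 4 UMIs, at a median of 473 CPM. Macrophage list cells, 78 in all, had 208, 11.7 and 132 CPM at a median of 593 CPM of the DP list, the 13 plasma cell list cells 262, 0 and 160.3 CPM at a median of 3344 CPM, and the 34 neutrophil list cells 672, 34.1 and 360.5 CPM at a median of 3679 CPM of the DP list, which neutrophils do not express. The lists overlap in cells, the values are pooled over samples, and no test was made.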
